A study of Mus musculus with 16 samples.

Results

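The urea cycle and arginase genes Cps1, Otc, Ass1, Asl, Arg1, Arg2 and Nags were followed in cultured mouse hepatocytes by RNA sequencing. They were picked by gene symbol, without use of measured values, and all 7 were found, once each, among the 54532 genes of the expression table. The 16 libraries form 5 groups, and their labels give mouse hepatocytes as the source of each. One group held hepatocytes by themselves (n = 3), one a co-culture with cancer cells wild-type (WT) for Phgdh (n = 3), and one a co-culture with cancer cells knocked out (KO) for it (n = 3). The remaining groups were the wild-type co-culture with a CXCR2 inhibitor, labelled CXCR2i (n = 3), and the knockout co-culture with the same inhibitor (n = 4). The enzyme encoded by Phgdh opens the serine synthesis pathway, and CXCR2 is a chemokine receptor. The genotype thus belongs to the cancer cells, and the hepatocytes themselves carry no stated alteration.

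The series' design text names the cancer cells as HY19636 and calls them, not the hepatocytes, the sequenced material; the labels were followed. Neither source gives the compound, its dose, a vehicle, the duration, the culture format or the age and strain of the hepatocytes. The inhibitor was never given to hepatocytes by themselves, so inhibitor effects were measurable only within co-culture. Set against hepatocytes alone, the inhibitor and the cancer cells cannot be told apart. The labels do not state whether replicates came from separate cultures; the p-values therefore reflect library-to-library spread alone, which may be technical.

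The urea cycle turns ammonia and the nitrogen of aspartate into urea, and the whole cycle runs mainly in the hepatocytes around the portal vein. N-acetylglutamate synthase (Nags) makes the activator that carbamoyl phosphate synthetase (Cps1) requires, and ornithine transcarbamylase (Otc) then forms citrulline, all in the mitochondrion. In the cytosol, argininosuccinate synthetase (Ass1) and argininosuccinate lyase (Asl) convert citrulline to arginine, and arginase (Arg1) splits it into urea and ornithine. Arg2 is a mitochondrial arginase found mostly outside the liver. Hepatocytes placed in culture are known to lose much of this expression.

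Values are FPKM, fragments counted per kilobase of a gene and scaled to library size, so levels can be set side by side between genes. The libraries held 15.0 to 21.3 M fragments. Hepatocyte transcripts were present in every library, and the summed FPKM of 10 hepatocyte markers (Alb, Ttr, Apoa1 and others) was 305 to 310 alone, 163 to 186 beside wild-type and 193 to 208 beside knockout cells, and 801 to 818 and 1023 to 1076 in the same co-cultures with the inhibitor. Of those markers 1, Hpd, stayed below 1 FPKM on average. Phgdh averaged 206 FPKM in hepatocytes alone, 200 FPKM beside wild-type and 197 FPKM beside knockout cancer cells. With the inhibitor it averaged 158 and 152 FPKM. Cxcr2 reached at most 0.0727 FPKM in any library. Which cells the RNA and the inhibitor effects came from was not tested. Between 17370 and 18360 genes were above 0 in libraries without the inhibitor and between 18592 and 19367 with it, and mitochondrially encoded transcripts took 3.25% to 4.57% and 1.86% to 2.11% of the total. Markers of other cells were measured too. The 10 of pancreatic cancer epithelium summed to 341 to 357 FPKM in hepatocytes alone, a group without cancer cells. They summed to less in co-culture, 246 to 275 FPKM beside wild-type and 241 to 259 FPKM beside knockout cells. With the inhibitor the sums were 646 to 691 and 620 to 647 FPKM. Msln, Krt19 and Sox9 carried them, while 6 of the 10 were under 1 FPKM on average and Agr2 and Tff1 were at 0 throughout. The 9 macrophage markers summed to 114 to 117 FPKM alone, 44.9 to 50.2 FPKM beside wild-type and 45.2 to 46.9 FPKM beside knockout cells. With the inhibitor they summed to 104 to 105 and 107 to 110 FPKM. Most of this was Cd14, with 7 of the 9 under 1 FPKM on average and the defining Adgre1 and Clec4f at 0 in every library. The 6 neutrophil, 7 stellate and 6 endothelial markers summed to at most 0.422, 0.351 and 0.190 FPKM. The part of hepatocyte state and of cell make-up in the results that follow was not tested, and in such bulk samples fewer cells of a type and less RNA per cell cannot be told apart.

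RefSeq gave promoter sequence (GRCm38.p6) for 3 of the 7 members, Ass1, Nags and Otc. They are shown because the other members had no such entry, and not because of their expression. The Ass1 stretch lies on the plus strand at chr2:31470020-31470206 and holds the 187 bases that precede the annotated exon. The Nags stretch, chr11:102145263-102145512, and the Otc stretch, chrX:10252055-10252304, are also on the plus strand and hold 250 bases each. Capitals mark GC boxes (GGGCGG, or CCGCCC where it lies on the other strand).
Ass1: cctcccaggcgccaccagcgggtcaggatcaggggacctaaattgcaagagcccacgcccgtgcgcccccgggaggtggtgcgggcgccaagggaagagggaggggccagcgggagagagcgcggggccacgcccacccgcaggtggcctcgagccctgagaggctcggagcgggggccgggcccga
Nags: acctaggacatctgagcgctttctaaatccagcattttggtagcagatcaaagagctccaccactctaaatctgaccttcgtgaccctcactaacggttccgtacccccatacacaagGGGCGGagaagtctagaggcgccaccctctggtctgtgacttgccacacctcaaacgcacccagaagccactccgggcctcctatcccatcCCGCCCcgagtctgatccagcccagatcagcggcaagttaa
Otc: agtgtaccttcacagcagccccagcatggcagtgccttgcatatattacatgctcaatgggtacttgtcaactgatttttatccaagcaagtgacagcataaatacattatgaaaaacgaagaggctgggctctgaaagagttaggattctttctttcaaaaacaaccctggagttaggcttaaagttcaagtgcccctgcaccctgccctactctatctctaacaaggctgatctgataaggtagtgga

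The 3 promoters differed in base composition. G and C made up 75.4% of the Ass1 stretch, against a median of 51.3% over all RefSeq promoters cut to the same window. They made up 55.6% of the Nags stretch and 43.6% of the Otc stretch, against a median of 52.4% over the full window. Searched on both strands, GGGCGG was found only in Nags, beginning 132 bases before the start on the plus strand and 41 bases before it on the other. That motif occurred in 32.7% of all 32851 promoters of 250 bases and in 22.2% of the 187-base windows. The TATA box TATAAA was in none of the 3 stretches, and in 12.4% of all promoters of 250 bases (8.62% of the shorter windows). The same held for the CCAAT box, with shares of 33.8% (26.2%). The motif TGACG, the core of cyclic AMP response elements, was in none either, with shares of 17.8% (11.4%), nor was the C/EBP-type motif TTNNGCAA, with shares of 9.56% (7.69%). None of the 5 motifs overlaps another in these stretches, and the motifs were chosen with the expression values known.

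**Figure D1:**
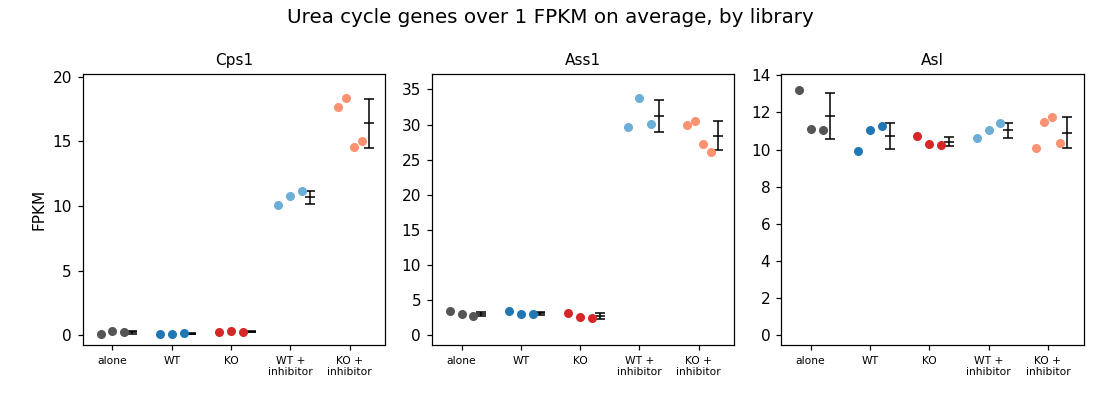
FPKM of Cps1, Ass1 and Asl in each library (points), with the mean and SD of each group beside them; groups are hepatocytes alone, with wild-type (WT) or knockout (KO) cancer cells, and each co-culture with the inhibitor. Cps1 and Ass1 are near the bottom of their axes in the 9 libraries without the inhibitor and high in the 7 with it, while Asl lies between 9.94 and 13.2 FPKM in all 16.

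Cps1, the rate-limiting first enzyme of the cycle (chromosome 1, 67123026 to 67231259, plus strand, GRCm38, 38 exons), was almost absent without the inhibitor. It stood at 0.116, 0.293 and 0.220 FPKM in hepatocytes alone, at 0.0782, 0.0855 and 0.129 FPKM beside wild-type cancer cells, and at 0.257, 0.290 and 0.239 FPKM beside knockout cancer cells. With the inhibitor it reached 10.1, 10.8 and 11.1 FPKM beside wild-type cells and 17.7, 18.3, 14.5 and 15.0 FPKM beside knockout cells. Every library with the inhibitor was above every library without it, and the inhibitor groups of the 2 genotypes did not overlap each other. Group means were 0.210 ± 0.0891 (SD, n = 3) alone, 0.0975 ± 0.0274 (n = 3) and 0.262 ± 0.0257 (n = 3) beside wild-type and knockout cells, and 10.7 ± 0.525 (n = 3) and 16.4 ± 1.89 (n = 4) with the inhibitor.

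In fragments, the inhibitor raised Cps1 107-fold in the wild-type co-culture (95% interval 75.1 to 158) and 62.4-fold in the knockout co-culture (50.5 to 78.0). These intervals, exact binomial ones on fragments pooled over the libraries of a group, cover counting error only and leave out the spread between libraries. Duplicates of 1 molecule are not marked, so even the counting error may be understated. On the fitted scale, log2(FPKM + 1), which understates changes of low genes, the difference was 3.41 ± 0.08 (SE) in the wild-type co-culture (limma adjusted p = 9.10e-14) and 3.78 ± 0.08 in the knockout co-culture (adjusted p = 1.37e-14). Cps1 ranked 40 and 26 by fold among the 11395 genes tested. Its mean over the 9 libraries without the inhibitor was 0.190 FPKM, under the minimum mean of 1 FPKM for testing, so it entered the test only through the groups in which it was high, and a gene that enters that way had to differ. Over the same comparisons Alb, the main plasma protein of the liver, went from a mean of 24.3 to 335 FPKM and from 27.8 to 461 FPKM.

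Ass1, which joins citrulline and aspartate (chromosome 2, 31470207 to 31520672, plus strand, 16 exons), was low but clearly detected without the inhibitor. Its FPKM was 3.37, 3.04 and 2.77 alone, 3.37, 2.99 and 2.95 with wild-type cells, and 3.16, 2.51 and 2.50 with knockout cells. The inhibitor libraries gave 29.6, 33.9 and 30.1 FPKM in the wild-type and 29.9, 30.5, 27.3 and 26.0 FPKM in the knockout co-culture. The libraries thus fell into a low set of 9 and a high set of 7 with no value between, and within each set the groups overlapped. Means were 3.06 ± 0.299, 3.10 ± 0.232 and 2.72 ± 0.380 FPKM (n = 3 each) without the inhibitor, and 31.2 ± 2.32 (n = 3) and 28.4 ± 2.11 (n = 4) with it.

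The rise of Ass1 was 10.1-fold in fragments in the wild-type co-culture (95% counting interval 9.14 to 11.2) and 10.5-fold in the knockout co-culture (9.43 to 11.6). The fitted differences were 2.97 ± 0.08 (adjusted p = 4.51e-13) and 2.98 ± 0.08 (adjusted p = 1.82e-13) on the log2(FPKM + 1) scale. By fold, Ass1 ranked 64 and 67 of 11395.

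Asl, the lyase that releases arginine and fumarate (chromosome 5, 130011258 to 130029247, minus strand, 18 exons), followed neither pattern. Its levels were 13.2, 11.1 and 11.1 FPKM alone, 9.94, 11.1 and 11.2 FPKM with wild-type cells, and 10.7, 10.3 and 10.2 FPKM with knockout cells. With the inhibitor they were 10.6, 11.1 and 11.4 FPKM in the wild-type and 10.1, 11.5, 11.7 and 10.3 FPKM in the knockout co-culture. In the order of group means, 11.8 ± 1.23 alone (n = 3), 11.0 ± 0.416 in the wild-type co-culture with inhibitor (n = 3), 10.9 ± 0.828 in the knockout co-culture with inhibitor (n = 4), 10.7 ± 0.710 wild-type (n = 3) and 10.4 ± 0.261 knockout (n = 3), every neighbouring pair overlapped. The inhibitor difference was 0.04 in the wild-type co-culture (95% interval -0.12 to 0.19, adjusted p = 0.669) and 0.06 in the knockout co-culture (-0.09 to 0.20, adjusted p = 0.462), both on the log2(FPKM + 1) scale by limma. These intervals leave room only for small changes next to those of Ass1, the enzyme one step before.

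Of the 7 members, 3 had the mean FPKM needed for testing. Cps1 had it only through the inhibitor libraries, so its call was fixed in advance and is not counted; of the other 2, the inhibitor raised Ass1 in either co-culture and Asl was not called. Over all 11395 genes, 33.5% were called higher and 33% lower in the wild-type comparison, and 34.8% higher and 34.7% lower in the knockout comparison, so a call by itself sets a member little apart. Calls at least 2-fold higher made up 7.59% and 7.79% of genes, and Ass1 was among them. The plot of fitted differences shows how far Cps1 and Ass1 lay from 0 where libraries with the inhibitor are set against libraries without it. Asl lay near 0 in all comparisons.

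**Figure D2:**
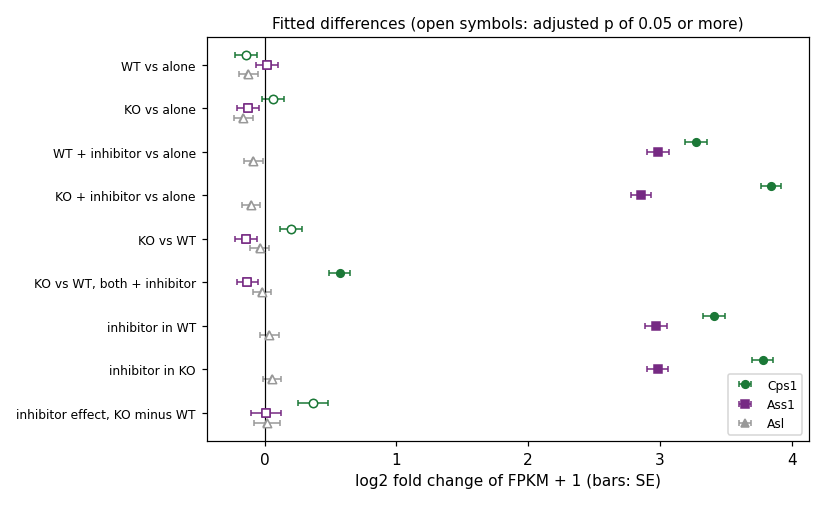
Fitted difference in log2(FPKM + 1) for Cps1, Ass1 and Asl in each comparison, with bars of 1 SE; filled symbols have an adjusted p under 0.05. Cps1 and Ass1 lie near 3 to 4 wherever libraries with the inhibitor are set against libraries without it, and Asl is open in every comparison.

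The other 4 members were under 1 FPKM on average and outside the test, so they are given as fragments and as ratios of pooled fragments. Nags, the source of the Cps1 activator, lies on chromosome 11 (102145513 to 102149477, plus strand, 7 exons). It had 0, 1 and 2 fragments alone, 5, 6 and 3 with wild-type cells, and 7, 1 and 8 with knockout cells. With the inhibitor it had 41, 60 and 30 fragments in the wild-type and 106, 74, 91 and 58 in the knockout co-culture. As levels, the inhibitor groups averaged 0.921 ± 0.299 FPKM (SD, n = 3) and 1.43 ± 0.211 FPKM (n = 4), against 0.0905 and 0.0981 FPKM in the co-cultures without it. No library with the inhibitor overlapped one without it.

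Nags was 10.5-fold higher with the inhibitor in the wild-type co-culture (95% counting interval 6.05 to 19.8) and 15.2-fold higher in the knockout co-culture (9.24 to 27.0). Without the minimum on FPKM, limma gave Nags differences of 0.81 (adjusted p = 1.96e-05) and 1.14 (adjusted p = 2.95e-07) on the log2(FPKM + 1) scale. Gm11586, a gene that overlaps Nags, was at 0 except in the wild-type co-culture with inhibitor, where it averaged 0.0700 FPKM. Whether strand was used in counting is not stated.

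Otc, the citrulline-forming enzyme and the next mitochondrial step, lies on chromosome X (10252305 to 10321024, plus strand, 10 exons). It was at the edge of detection without the inhibitor. It had 0, 1 and 1 fragments alone, 0, 2 and 0 with wild-type cells, and none in the 3 libraries with knockout cells, which allows up to 0.0119 FPKM there (3 fragments over the group). With the inhibitor it had 9, 21 and 25 fragments in the wild-type and 55, 32, 27 and 28 in the knockout co-culture, that is 0.266 ± 0.133 FPKM (n = 3) and 0.415 ± 0.127 FPKM (n = 4). Each library with the inhibitor was thus above each without it.

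In the wild-type co-culture the Otc ratio was 30.9, with a wide counting interval of 8.16 to 262 because only 2 fragments were seen without the inhibitor. In the knockout co-culture Otc was at least 35.1-fold higher with the inhibitor. The limma fit without a minimum gave Otc differences of 0.32 (adjusted p = 0.00337) and 0.50 (adjusted p = 5.29e-05). Even so, Otc stayed far below Ass1 and Cps1 per unit of length.

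Arg1, the arginase of the liver cycle (chromosome 10, 24915221 to 24927484, minus strand, 8 exons), stayed near the limit of detection everywhere. It had 1, 0 and 7 fragments alone, 6, 2 and 5 with wild-type cells, 1, 6 and 7 with knockout cells, and, with the inhibitor, 10, 5 and 4 and then 4, 3, 7 and 5. All groups overlapped, and the highest library reached 0.255 FPKM. The Arg1 ratio for the inhibitor was 1.64 in the wild-type (95% counting interval 0.770 to 3.62) and 1.01 in the knockout co-culture (0.478 to 2.17). The upper bounds lie below the lower bounds found for Nags in the same co-cultures.

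Arg2, the mitochondrial arginase (chromosome 12, 79130777 to 79156301, plus strand, 8 exons), ranged from 0 to 6 fragments. It was above 0 in 11 of 16 libraries. Its groups all overlapped, with a highest value of 0.246 FPKM, in a library of hepatocytes alone. The inhibitor ratio was 0.562 (0.0508 to 3.92) in the wild-type and 0.741 (0.198 to 2.77) in the knockout co-culture, so neither a rise nor a fall of moderate size was detectable at this depth. Vti1b overlaps Arg2 on the opposite strand and averaged 16.6 to 29.1 FPKM, and its reads cannot be told from those of Arg2 without strand. In the limma fit without a minimum, adjusted p over the 9 comparisons was 0.138 or more for Arg1 and 0.282 or more for Arg2.

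**Figure D3:**
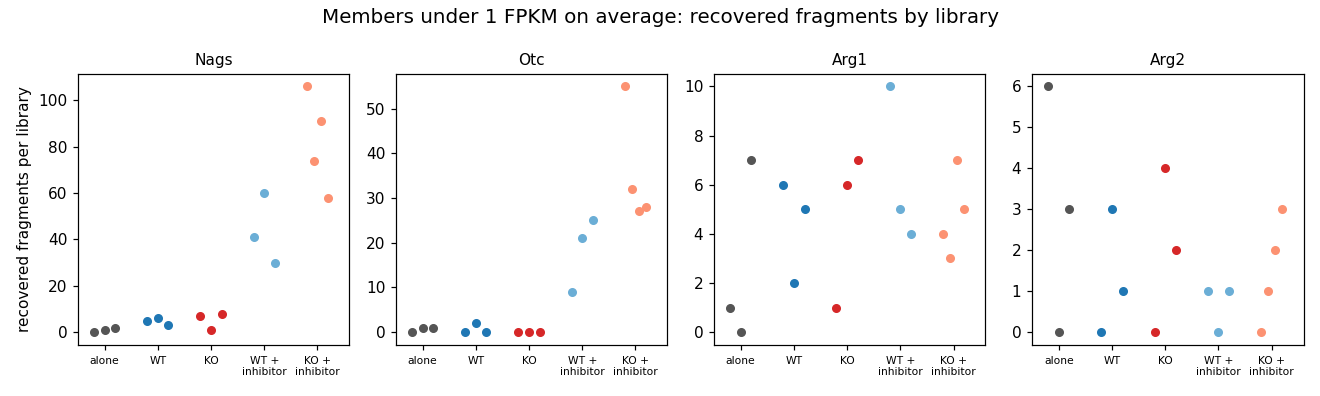
Recovered fragments per library for the 4 members under 1 FPKM on average, not scaled for depth (15.0 to 21.3 M fragments per library). Nags and Otc have higher counts in all 7 libraries with the inhibitor than in any of the 9 without it, while Arg1 and Arg2 never exceed 10 and 6 fragments and all their groups overlap.

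For scale, the shift of faint genes as a whole was measured. Between 0.05 and 0.5 FPKM in the 9 libraries without the inhibitor there were 4896 genes, and their median log2 ratio (pseudocount 0.1) for the inhibitor was 0.04 in the wild-type and 0.13 in the knockout co-culture. On that scale Cps1 was at 5.77 and 5.51 and Nags at 2.42 and 2.95. Otc, whose mean of 0.00569 FPKM in those libraries lies below this range, was at 1.76 and 2.36. Rises of at least 16-fold were seen in 49 and 54 of those genes, Cps1 among them.

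The order of the members by level per unit of length also changed. Without the inhibitor Asl was first and Ass1 next in every group, with non-overlapping libraries, and the other 5 were all under 0.3 FPKM. With the inhibitor Ass1 was first. Asl and Cps1 overlapped in the wild-type co-culture, Cps1 stood above Asl in the knockout co-culture, and Nags, then Otc, followed in both. Arg1 and Arg2 came last in the knockout co-culture, where they overlapped each other; in the wild-type co-culture Arg1 overlapped Otc. In none of the groups did the transcript of the urea-forming enzyme itself reach 0.3 FPKM.

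The genotype of the cancer cells was compared within each inhibitor state. With the inhibitor, 1 of the 3 tested members was called, Cps1, which was higher beside knockout than beside wild-type cells, with a background of 1.66% of genes higher and 0.649% lower. The difference was 0.57 ± 0.08 on the log2(FPKM + 1) scale (limma adjusted p = 0.00150, rank 54 of 11395), and the fragment ratio was 1.54 (95% counting interval 1.48 to 1.61). All 4 knockout libraries, at 14.5 FPKM or more, were above all 3 wild-type libraries, at 11.1 FPKM or less. With a pseudocount of 0.1 in place of 1 the Cps1 difference was 0.61 but no longer past the threshold (adjusted p = 0.115). Of the 9 hepatocyte markers tested, 4 were called higher in the same comparison, Alb (0.46 ± 0.05, adjusted p = 0.000382), Ttr, Fgb and Tat. The other 5 (Apoa1, Apob, Serpina1a, Hnf4a and Trf) were not called. Their part in the Cps1 result was not tested.

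Ass1 and Asl were not called between genotypes under the inhibitor. Ass1 differed by -0.13 (95% interval -0.30 to 0.04, adjusted p = 0.576). For Nags and Otc the libraries of both genotypes overlapped, although the pooled fragment ratios were 1.56 (1.27 to 1.93) and 1.60 (1.17 to 2.23). With no minimum on FPKM, limma left both short of the threshold, at adjusted p = 0.138 for Nags and 0.491 for Otc.

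Without the inhibitor no tested member was called between knockout and wild-type co-culture, against a background of 1.65% of genes higher and 1.34% lower; at an unadjusted p under 0.05 there was 1, Cps1. Cps1 was nevertheless higher beside knockout cells in each library, at 0.239 to 0.290 against 0.0782 to 0.129 FPKM, and its fragment ratio was 2.64 (95% counting interval 1.74 to 4.12). The Cps1 difference of 0.20 ± 0.08 in log2(FPKM + 1) missed the threshold (adjusted p = 0.278). With a pseudocount of 0.1 it became 0.88 and passed (adjusted p = 0.0206), while with voom weights on the recovered fragments it was 1.39 and did not (adjusted p = 0.287).

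The difference of the 2 inhibitor effects, knockout minus wild-type, was also fitted, and no member was called (background 0.816%); at an unadjusted p under 0.05 there was 1, Cps1. It was 0.37 ± 0.11 for Cps1 (limma adjusted p = 0.203), a value whose sign depended on the scale: it was -0.27 with a pseudocount of 0.1 and -0.77 with voom. For Ass1 and Asl it was 0.01 and 0.02 (adjusted p = 0.987 and 0.970). A genotype difference in the inhibitor effect was thus not shown for these 3 genes in either direction.

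Co-culture without the inhibitor moved no tested member past the threshold on the log2(FPKM + 1) scale. Against hepatocytes alone, 30.1% of genes were higher and 31.9% lower with wild-type cells, and 30.3% higher and 31.2% lower with knockout cells, and none of the 3 members was called; at an unadjusted p under 0.05 there were 0 and 1, the latter Asl. Cps1 differed by -0.14 ± 0.08 (adjusted p = 0.165) with wild-type and 0.06 (adjusted p = 0.528) with knockout cells, and Asl by -0.12 ± 0.07 (adjusted p = 0.152) and -0.16 ± 0.07 (adjusted p = 0.0651). The Cps1 fragment ratio with wild-type cells was 0.477 (95% counting interval 0.300 to 0.746), and with a pseudocount of 0.1 Cps1 was called lower there (-0.62, adjusted p = 0.0101). With knockout cells the ratio was 1.26 (0.901 to 1.78). These comparisons share the libraries of hepatocytes alone. Nags had 3 fragments in those libraries against 14 with wild-type cells, a ratio of 4.46 with an interval of 1.24 to 24.2. With knockout cells it had 16 fragments, a ratio of 4.80 (1.37 to 25.7). Neither Nags difference was called by limma without a minimum (adjusted p = 0.589 and 0.546) or with voom (adjusted p = 0.0810 and 0.130).

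Set against hepatocytes alone, the inhibitor co-cultures had higher Cps1 and Ass1. On the log2(FPKM + 1) scale Cps1 was 3.27 higher with wild-type cells and inhibitor and 3.84 higher with knockout cells and inhibitor (adjusted p = 2.22e-13 and 1.40e-14). Ass1 was 2.99 and 2.86 higher (adjusted p = 6.85e-13 and 3.94e-13), and Asl differed by -0.09 and -0.10 (adjusted p = 0.303 and 0.182). In fragments, Cps1 was 51.0-fold and 78.8-fold and Nags 46.9-fold and 73.1-fold higher, the Nags ratios resting on 3 fragments in hepatocytes alone (95% counting intervals 15.7 to 230.1 and 24.8 to 356). Of the 2 tested members that did not depend on the inhibitor libraries to enter the test, Ass1 was called higher and Asl was not called, beside 32.1% of genes higher and 34.7% lower with wild-type cells, and 33.3% higher and 36.1% lower with knockout cells.

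Genes whose values ran most like those of each tested member over the 16 libraries were listed by Pearson correlation of log2(FPKM + 1), as a description of libraries that share groups. For Cps1 they were Ndrg2 (r = 0.998), Deptor (0.997) and Malrd1 (0.997). Ndrg2 averaged 0.267 FPKM in the wild-type co-culture, 8.98 FPKM with the inhibitor and 12.8 FPKM in the knockout co-culture with it. For Ass1 they were Atp9a (r = 0.998), Arhgef16 (0.997) and Galnt15 (0.996), and Atp9a went from 0.353 and 0.345 FPKM to 12.4 and 12.5 FPKM. Except for Deptor, these partners averaged under 1 FPKM in each group without the inhibitor, so they were tested only through the inhibitor libraries. Genes sharing that split correlate highly by construction. For Asl, whose levels differed little between groups, the nearest genes were Ppp1r3e (r = 0.800), Thoc6 (0.763) and Lrwd1 (0.759). The lower r thus does not set Asl apart.

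Around the cycle, 55 genes in 6 lists were examined, of which 41 were tested. The inhibitor raised 17 and lowered 14 of the 41 in the wild-type co-culture and raised 17 and lowered 13 in the knockout co-culture. Over all genes tested, 33.5% were higher and 33% lower in the wild-type co-culture, and 34.8% higher and 34.7% lower in the knockout co-culture. The same shares are the background for the counts per list below, so these counts by themselves set the lists little apart. Their median difference was -0.00 and 0.09, beside -0.01 and -0.01 over all genes tested, so the surroundings of the cycle did not move as one. The lists were compiled with earlier results of these data known.

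**Figure D4:**
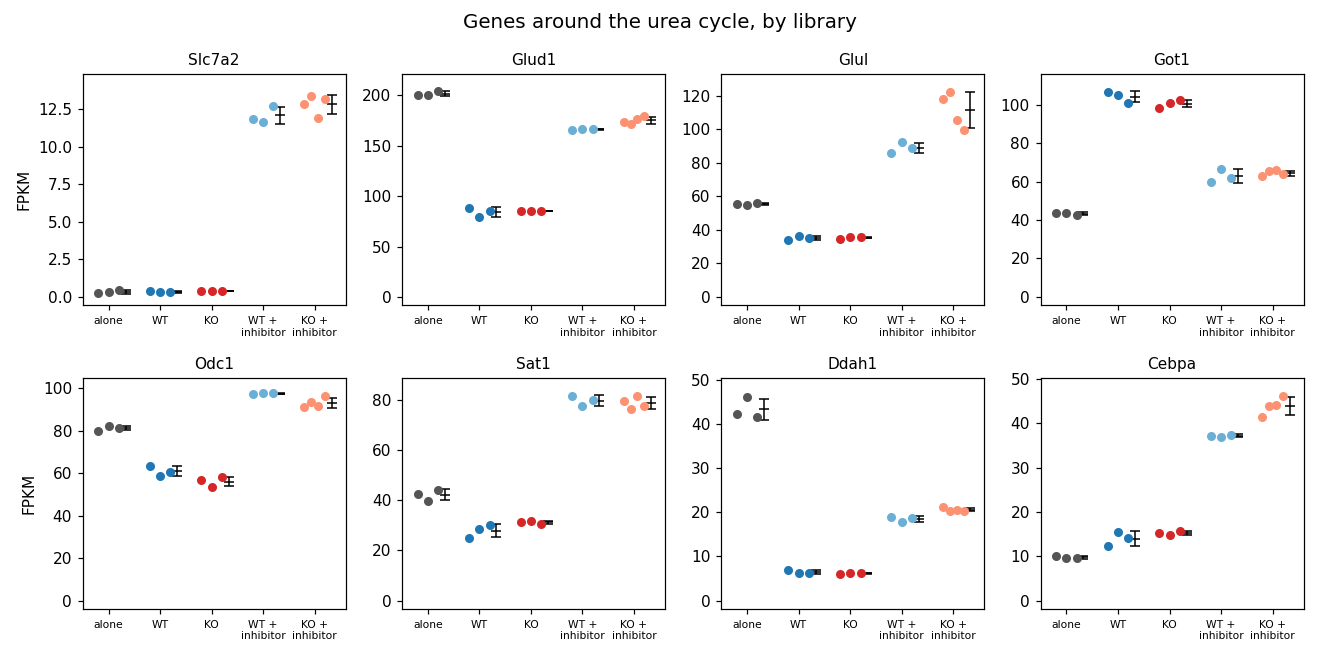
FPKM by library, with group mean and SD, for 8 genes around the urea cycle: arginine uptake (Slc7a2), ammonia, glutamate and aspartate metabolism (Glud1, Glul, Got1), the ornithine and polyamine branch (Odc1, Sat1), methylarginine breakdown (Ddah1) and a transcription factor (Cebpa). Slc7a2, Glul, Odc1, Sat1 and Cebpa are higher in all libraries with the inhibitor than in any without it. Ddah1 is highest in hepatocytes alone, and Got1 is highest in the co-cultures without the inhibitor.

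Of 7 tested genes of ammonia, glutamate and aspartate metabolism, 5 rose and 2 fell with the inhibitor in either co-culture. Glul, glutamine synthetase, which uses ammonia rather than passing it to the cycle, went from a mean of 35.1 to 89.0 FPKM (difference 1.32) in the wild-type and from 35.4 to 111 FPKM (1.62) in the knockout co-culture. Glud1, glutamate dehydrogenase, which releases ammonia from glutamate, rose by 0.97 and 1.02, having been lower in both co-cultures (84.2 and 85.5 FPKM) than in hepatocytes alone (202 FPKM). Gls2, the liver glutaminase, rose by 1.06 and 1.03. Got1, the cytosolic aspartate aminotransferase, moved the other way, from 104 to 62.8 FPKM and from 100.4 to 64.4 FPKM; it is named after its values were seen.

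For arginine uptake, 1 of 5 genes rose and 3 fell. The riser was Slc7a2, the cationic amino acid transporter typical of liver, at 0.346 FPKM alone, 0.344 and 0.406 FPKM in co-culture, and 12.1 and 12.8 FPKM with the inhibitor. Like Cps1, it reached the minimum mean for testing only through the inhibitor libraries (0.365 FPKM over the 9 without it), so its call was fixed in advance. Its differences of 3.28 and 3.29 lay between those of Ass1 and Cps1. Slc7a1, the widely expressed transporter for the same amino acids, fell by 0.56 and 0.39, and Slc3a2, the heavy chain shared by several amino acid transporters, fell by 1.50 and 1.44.

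In the ornithine, polyamine and proline branch, 4 of 12 genes rose and 4 fell in the wild-type co-culture, and 3 rose and 4 fell in the knockout co-culture. Sat1, which acetylates polyamines for breakdown and export, rose by 1.49 and 1.31. Pycr1 and Aldh18a1, enzymes of proline synthesis, fell by 1.35 and 0.89 in the wild-type and by 1.17 and 0.76 in the knockout co-culture. Among genes of the nitric oxide and creatine branch, 2 of 3 rose and 1 fell. The faller, Ddah2, averaged 0.713 FPKM with the inhibitor and entered the test only through the libraries without it. Its call in the knockout co-culture (-0.36, adjusted p = 0.0459) was lost under most alternatives, with an adjusted p of 0.259 without knockout replicate 2. Ddah1, which breaks down methylarginines, rose by 1.38 and 1.59, to 18.5 and 20.6 FPKM, still under its 43.4 FPKM in hepatocytes alone.

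Among 10 tested regulators of urea cycle genes, 3 rose and 2 fell with the inhibitor in either co-culture. Cebpa, a liver transcription factor, went from 14.0 to 37.2 FPKM (difference 1.35) and from 15.3 to 44.0 FPKM (1.47). Hnf4a, another, rose by 0.46 and 0.83. The 2 fallers in the wild-type co-culture were Atf4 (-0.58) and Cebpd (-0.55), both larger changes than that of Hnf4a there. Cebpd also fell in the knockout co-culture (-0.46), where Atf4 averaged 231 FPKM without the inhibitor and 177 FPKM with it. Of 4 tested carriers, 2 were higher and 2 lower in the wild-type co-culture, and 3 higher and 1 lower in the knockout co-culture. These counts are fragile. The Slc25a12 call in the wild-type co-culture (0.18) was lost under most alternatives (with quantile normalization 0.06, adjusted p = 0.465), and the Aqp9 call in the knockout co-culture (0.24) under 8 (with quantile normalization 0.07, adjusted p = 0.505).

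Between genotypes few of these genes moved. Over all genes tested, 1.65% were higher and 1.34% lower without the inhibitor, and 1.66% higher and 0.649% lower with it. Without the inhibitor 1 of 41 was higher beside knockout cells, Got2 (0.14, adjusted p = 0.0295), and 2 were lower, Pycr1 (-0.21, adjusted p = 0.0188) and Hnf4a (-0.27, adjusted p = 0.00322); all 3 calls were lost when only the libraries of the groups compared entered the fit. The Got2 call was also lost without wild-type replicate 2 or 3 or any knockout replicate (adjusted p up to 0.109), and the Pycr1 call without wild-type replicate 2 or knockout replicate 1 or 2 (up to 0.0812). With the inhibitor 1 of 41 was called, Glul, at 0.32 ± 0.06 (adjusted p = 0.00954), a call lost in that smaller fit and also without replicate 1 of the wild-type co-culture with inhibitor (adjusted p = 0.0567). Against hepatocytes alone, 15 of the 41 rose and 20 fell with wild-type cells, and 15 rose and 22 fell with knockout cells. The shares over all genes were 30.1% higher and 31.9% lower, and 30.3% higher and 31.2% lower.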

How the data were processed

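RNA was taken from 16 libraries of mouse hepatocytes with a column kit, per the labels' protocols. HISAT2 and the builds GRCm38 and mm10 are named per the submitters' processing notes. Not given in the sources used here are the aligner's version, how fragments were counted, and the annotation and strand setting. The authors deposited FPKM per gene and library, without pooling. Members, lists and motifs were chosen with earlier results of these data known.

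The deposited FPKM were put on the log2 scale after adding 1. The 11395 of 54532 genes averaging at least 1 FPKM were tested with limma 3.58.1 in R 4.3.3: 1 mean per group, all 16 libraries, 11 residual degrees of freedom, moderated variances with an intensity trend, two-sided tests, p-values adjusted by Benjamini-Hochberg over those genes and called below 0.05, in 9 comparisons. The fit was also run on simulated data in which few genes changed. Far more genes were called in most comparisons here, so that run gives no support to these calls. Fragments were recovered from FPKM and gene length, 100% of values being within 0.1 of a whole number of fragments, at 15.0 to 21.3 M per library. Ratios of pooled fragments carry exact 95% intervals for counting error, and a group at 0 is set at 3 fragments. Named genes were the 7 members, the 3 genes most correlated with each tested member, and Phgdh, Cxcr2 and Alb as checks. From each list and comparison, up to 3 genes with the largest absolute called change could be named. Some values given lie outside that rule, among them Hnf4a for the inhibitor in the wild-type co-culture and the genes at or near 0 fragments. Member coordinates are those of the deposited table, the same as in GENCODE M21. Exon numbers count all exons, coding or not, of the annotated coding transcript with the most exons. Alternatives covered the pseudocount, the minimum, the scaling, the libraries fitted and leaving out each library; voom was added after seeing the data.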

Additional observations from a re-analysis of the deposited data

Results flagged for a closer look

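The inhibitor effect on Hnf4a, a transcription factor of hepatocyte identity, differed between the co-cultures by a test of the difference itself. The effect was larger beside knockout than beside wild-type cancer cells by 0.3672 ± 0.06 (SE) on the log2(FPKM + 1) scale (limma adjusted p = 0.0103 over 11395 genes). Hnf4a averaged 49.8 and 69.1 FPKM beside wild-type cells, without and then with the inhibitor, and 41.0 and 73.8 FPKM beside knockout cells. It was the 1 gene of the 41 tested around the urea cycle with such a difference, against a background of 0.816% of all genes, and it is also among the 10 hepatocyte markers. With each library left out in turn the adjusted p ran from 0.00187 to 0.0417.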

How the results depend on the processing

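The rise of Ass1 with the inhibitor kept its direction and its adjusted p under the threshold in every alternative run with limma, including each library left out. Cps1 did so too, but its call was fixed in advance, so this adds no support. Counting Cps1, the number of members called went from 2 to 4 (Nags and Otc added) with no minimum and with voom. Both settings test more genes. The change was seen in both inhibitor comparisons and in both comparisons of inhibitor co-cultures with hepatocytes alone. With a pseudocount of 0.1, the count went from 0 to 1 for the wild-type co-culture against hepatocytes alone (Cps1, -0.62, adjusted p = 0.0101) and for knockout against wild-type (Cps1), and from 1 to 0 for the genotypes under the inhibitor; the cause was not tested. Leaving out 1 library gave 0 to 1 members for the knockout co-culture against hepatocytes alone: Asl without replicate 2 or 3 of hepatocytes alone (adjusted p = 0.0489 and 0.0436) or Ass1 without knockout replicate 1 (0.0451). The Cps1 genotype difference under the inhibitor held in all 16 such fits (adjusted p 0.00137 to 0.0127). Signs turned only for uncalled differences: Cps1 in the difference of inhibitor effects (-0.27 with a pseudocount of 0.1, -0.77 with voom), Asl between genotypes under the inhibitor (0.0053 with the replicate block), and, over left-out libraries, the same Asl value (-0.0514 to 0.0163), Ass1 in the wild-type co-culture against hepatocytes alone (-0.0358 to 0.0701), Asl for the inhibitor in the wild-type co-culture (-0.0144 to 0.0674), and Ass1 (-0.0335 to 0.0954) and Asl (-0.0131 to 0.0714) in the difference of inhibitor effects. Over all genes, 341 calls between genotypes became 17 with only the groups compared and 157 to 396 with a library left out, 263 under the inhibitor became 123 to 372, and 93 for the difference of effects became 55 with no minimum, 41 with only the groups compared, 34 with the replicate block and 31 to 120 with a library left out. Replicate numbers did not pair the libraries (30 same-number pairs, r -0.300 to 0.270, median 0.0104), and the block changed no tested member's call, though it ended that of Got2 between genotypes (adjusted p = 0.0658). The planned edgeR and DESeq2 fits were not run, because the deposited values are FPKM. Depth limits Otc, Arg1 and Arg2 to at most 55 fragments in a library.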

Other observations

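A pair of genes that link to the cycle in liver had no fragments here. Car5a, the mitochondrial carbonic anhydrase that supplies bicarbonate to Cps1, and Gatm, the first enzyme of creatine synthesis, had 0 fragments in all 16 libraries, which allows up to 0.00749 and 0.00334 FPKM over all of them (3 fragments). Nos2, the inducible nitric oxide synthase, was at 0 in the co-cultures without the inhibitor and in the wild-type co-culture with it, which allows up to 0.0121, 0.0114 and 0.0136 FPKM; it was seen only in 1 library of hepatocytes alone (0.0664 FPKM) and 1 of the knockout co-culture with inhibitor (0.0341 FPKM).

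Amino acid genes around the cycle differed strongly between hepatocytes alone and in co-culture without the inhibitor. Slc3a2 averaged 134 FPKM alone, 580.001 FPKM with wild-type and 574 FPKM with knockout cells, and 204 and 211 FPKM when the inhibitor was added. Pycr1 averaged 3.85 FPKM alone, 23.8 and 20.5 FPKM in co-culture, and 8.71 and 8.54 FPKM with the inhibitor. Asns, asparagine synthetase, averaged 63.1, 145 and 141 FPKM and then 83.2 and 81.9 FPKM. With the inhibitor, each of these 3 genes thus lay between its level in hepatocytes alone and its level in co-culture; they were picked after their values were seen.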
